A study of Mus musculus with 2 samples.

Results

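The genes that make heme were followed in spleen cells of sickle cell disease (SCD) mice and controls. The set holds the 2 isoforms of the first enzyme, Alas1 and Alas2, the later enzymes Alad, Uros, Urod, Cpox, Ppox and Fech, and the mitochondrial carrier Slc25a39. They were chosen by gene symbol, and all 9 were found among the 26124 genes of the count matrices, each once. Droplet-based 3′ single-cell RNA sequencing (scRNA-seq) had been done on spleen cells after red blood cell lysis and enrichment on magnetic beads coated with an antibody to F4/80, a surface protein of macrophages. There were 2 libraries, each from 1 untreated mouse aged between 12 and 16 weeks. The control mouse, labelled wild-type, was homozygous for Hbatm1Paz, a deletion of mouse α-globin genes, heterozygous for the β-globin deletion Hbbtm1Tow and hemizygous for the human hemoglobin transgene Tg(HBA-HBBs)41Paz. The SCD mouse was homozygous for all 3 alleles, so that both mice carried the α-globin deletion and the human transgene, and the control was not a mouse with its own hemoglobin. Since each condition had 1 library, differences between conditions have no test, and the 95% intervals given here cover counting error only.

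Heme is made in steps that start and end in the mitochondrion. ALAS joins glycine and succinyl-CoA in the rate-limiting step, with ALAS1 in most tissues and the X-linked ALAS2 in erythroid cells. ALAD, UROS and UROD work in the cytosol, CPOX and PPOX act in mitochondria, and FECH inserts iron into the finished ring. SLC25A39 is an inner membrane carrier needed for mitochondrial glutathione and for heme production in erythroid cells. Erythroblasts mature around a central macrophage in erythroblastic islands, and red pulp macrophages (RPMs) of the spleen break down heme from old red cells. A macrophage that holds erythroid transcripts is called erythroblastic island (EBI)-like here, a name that does not separate a cell that has taken up erythroid material from one that was captured with an erythroid cell.

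Promoter windows of 8 of the 9 members, all but Fech, which was left out of the search, were taken from RefSeq (GRCm38.p6). These 11 windows each held the 250 bases before and 50 bases after a transcription start. They were searched on both strands for a GATA motif, AGATAA or TGATAA, the letters that GATA factors read, and for a CACCC motif, CCACCC, the letters that Krüppel-like factors read. A GATA motif was in 3 of the 11 windows (Alas2, Cpox and 1 of the 2 windows of Uros), against 18.6% of 32851 windows over all genes. A CACCC motif was in 3 windows (Alas2, Alas1 and Slc25a39), against 31.5% of all windows, and only the Alas2 window held both, as did 4.39% of all windows. The windows of the erythroid isoform, of Cpox, of the GATA-bearing Uros start and of the ubiquitous isoform Alas1 are shown, the first 3 because they hold a GATA motif and the last for the other isoform of the first enzyme. Capitals mark the motifs, which read as TTATCT or TTATCA and GGGTGG where they lie on the other strand, and a match is a description of these letters and not a binding site.
Alas2, chrX:150547167-150547466, plus strand: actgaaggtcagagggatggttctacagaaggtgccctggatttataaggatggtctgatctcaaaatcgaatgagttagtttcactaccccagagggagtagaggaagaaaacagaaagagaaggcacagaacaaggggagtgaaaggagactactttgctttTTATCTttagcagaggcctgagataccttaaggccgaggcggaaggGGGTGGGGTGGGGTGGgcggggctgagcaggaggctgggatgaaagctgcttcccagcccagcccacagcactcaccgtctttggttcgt
Cpox, chr16:58669958-58670257, plus strand: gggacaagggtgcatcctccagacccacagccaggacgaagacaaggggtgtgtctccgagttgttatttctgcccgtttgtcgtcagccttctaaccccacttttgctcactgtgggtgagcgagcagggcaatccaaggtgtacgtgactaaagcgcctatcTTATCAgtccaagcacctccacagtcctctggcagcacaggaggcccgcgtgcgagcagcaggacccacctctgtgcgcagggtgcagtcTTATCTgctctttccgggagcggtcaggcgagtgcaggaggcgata
Uros, chr7:133702451-133702750, minus strand: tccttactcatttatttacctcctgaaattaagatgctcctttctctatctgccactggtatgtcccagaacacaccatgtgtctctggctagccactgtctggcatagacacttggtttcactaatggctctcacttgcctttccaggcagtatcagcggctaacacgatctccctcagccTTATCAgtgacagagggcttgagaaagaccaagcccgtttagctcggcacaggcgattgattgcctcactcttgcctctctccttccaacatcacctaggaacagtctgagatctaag
Alas1, chr9:106247905-106248204, minus strand: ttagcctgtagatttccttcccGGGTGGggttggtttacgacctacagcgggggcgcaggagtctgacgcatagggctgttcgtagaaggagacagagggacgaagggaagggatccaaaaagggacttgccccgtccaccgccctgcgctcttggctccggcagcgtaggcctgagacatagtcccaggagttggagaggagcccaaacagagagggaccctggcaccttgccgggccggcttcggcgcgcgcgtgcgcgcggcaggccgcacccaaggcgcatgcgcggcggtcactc

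The members lie on separate places of the genome (GRCm38, GENCODE M21). Alas2 lies on chromosome X at 150547375-150570638 (plus strand), Alas1 on chromosome 9 at 106233455-106248654 (minus), Alad on chromosome 4 at 62509169-62519918 (minus), Urod on chromosome 4 at 116989965-116994413 (minus), and Uros on chromosome 7 at 133686243-133710072 (minus). Cpox lies on chromosome 16 at 58670292-58717636 (plus), Ppox on chromosome 1 at 171275990-171281186 (minus), Fech on chromosome 18 at 64452914-64490251 (minus) and Slc25a39 on chromosome 11 at 102402985-102407946 (minus). All are protein-coding, and no member overlaps another gene of the count matrices on its own strand.

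The wild-type-labelled library held 24144 barcodes and 145953464 UMIs (unique molecular identifiers, 1 per captured RNA molecule), and the SCD-labelled library held 15442 barcodes and 73986356 UMIs. The libraries shared 107 barcodes. Of the barcodes, 19419 and 12280 passed the cell filter, with medians of 4115 and 4570.0 UMIs. Hemoglobin went against the genotypes. In erythroid-like cells the mouse adult β-globin gene Hbb-bs was at 177 CPM (UMIs of the gene per 1000000 UMIs) in the wild-type-labelled library and at 68476 CPM in the SCD-labelled library, whose mouse should lack it, and Hbb-bt was at 309.9 and 21474 CPM. By label both mice lack the mouse α-globin genes, yet Hba-a1 stood at 34141 and 37730.5 CPM. The libraries are therefore named by their labels throughout, and a direction between them rests on labels that the β-globin genes go against.

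Cells were clustered without the 9 members, without 21 other genes of heme synthesis and iron supply, and without hemoglobin genes, so that the members' levels did not shape the clusters. Erythroid-like cells numbered 2121 in the wild-type-labelled library (median 5064 UMIs) and 272 in the SCD-labelled library (4846 UMIs), or 10.9% and 2.21% of kept cells. They formed a cycling cluster (cluster 10, 1480 and 154 cells) and a later one (cluster 9, 641 and 118 cells). The summed level of the erythroid markers, which named these clusters, was 59404 and 65499 CPM in erythroid-like cells against 1259.8 and 297 CPM in the main cluster of B lymphocytes, the B reference (527 and 1734 cells), with no marker at 0 in erythroid-like cells. These cells were not free of macrophage RNA. The summed level of 12 red pulp macrophage markers was 4021 and 2352 CPM in them, compared with 2972 and 1994 CPM in the B reference, while RPM-like cells reached 24237 and 22256 CPM. The part of macrophage RNA in the members' levels was not tested beyond an alternative without the erythroid-like cells that held macrophage UMIs, which left out 1906 of 2121 and 193 of 272 cells and under which 8 members stayed above the B reference.

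Of the 9 members, 8 were far higher in erythroid-like cells than in B lymphocytes of the same library, and Alas1 was lower. The B reference gives the level that free RNA can reach in cells that should lack erythroid transcripts, although B lymphocytes also make some heme of their own. In the wild-type-labelled library, Alas2 was at 2004 CPM in erythroid-like cells and 65.5 CPM in the B reference, a log2 ratio of 4.94 (95% interval 4.64 to 5.25). In the SCD-labelled library, Alas2 reached 2138 CPM against 15.5 CPM, with a log2 ratio of 7.11 (6.81 to 7.43). The wider ratio in the second library went mostly with the lower level in the B reference.

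Fech, the last enzyme, was at 2080.1 CPM against 89.5 CPM in the wild-type-labelled library (log2 ratio 4.54, 4.28 to 4.81) and at 2129 CPM against 31.9 CPM in the SCD-labelled library (6.06, 5.85 to 6.28). Cpox, which makes protoporphyrinogen, was at 3441 and 74.9 CPM (5.52, 5.24 to 5.81) and at 2845 and 58.1 CPM (5.61, 5.46 to 5.77). UMIs of a 3′ assay count captured molecules, so levels are compared here between cells and not between genes.

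The cytosolic enzymes also stood above the B reference. Alad was at 497 against 30.6 CPM (4.02) and 465 against 22.5 CPM (4.37), Uros at 311 against 10.2 CPM (4.93) and 326 against 9.75 CPM (5.06), and Urod at 407 against 16.7 CPM (4.60) and 376 against 12.4 CPM (4.92), as CPM and log2 ratios in the wild-type-labelled and SCD-labelled libraries. Ppox was at 236 against 19.6 CPM (3.58) and 204 against 11.9 CPM (4.09). Slc25a39 had the smallest ratio of the 8, at 439.7 against 61.8 CPM (2.83) and 515 against 49.4 CPM (3.38), and its B lymphocyte level reached 14.1% and 9.59% of its erythroid level, compared with 0.723% to 8.34% for the other 7.

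In both libraries 8 of the 9 members were at least 2-fold higher in erythroid-like cells than in the B reference. Over all genes with at least 100 UMIs in the compared cells, 19.3% were so in the wild-type-labelled library and 14.1% in the SCD-labelled library. The median log2 ratio was 4.57 and 4.92 over the members with at least 100 UMIs, and -0.21 and -0.72 over all genes.

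Alas1 was lower in erythroid-like cells than in the B reference. It was at 5.27 CPM (4.11 to 6.65) in erythroid-like cells and 14.5 CPM in the B reference of the wild-type-labelled library, and at 6.14 CPM (2.94 to 11.3) and 15.1 CPM in the SCD-labelled library. The log2 ratios were -1.47 (-2.20 to -0.67), from 91 UMIs in all, and -1.30 (-2.41 to -0.36). The medians over all genes were -0.21 and -0.72. The interval of the SCD-labelled library holds its median, so Alas1 could not be told there from a typical gene. The share of all genes at least 2-fold lower was not computed. With the libraries clustered separately the Alas1 ratios were -1.20 and -0.059, so the lower level in the SCD-labelled library rested on the joint clustering. Among 9 cell classes it was lowest in erythroid-like cells of both libraries. Its highest level was in neutrophil-like cells of the wild-type-labelled library, at 106 CPM (92.4 to 121, 278 cells), and the next class, dendritic-cell-like, was at 26.7 CPM. The SCD-labelled library held 12 neutrophil-like cells with 1 Alas1 UMI, which is too few to place it there. Neighbouring classes could not be told apart within counting error in 7 of 8 steps of the order in either library.

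**Figure D1:**
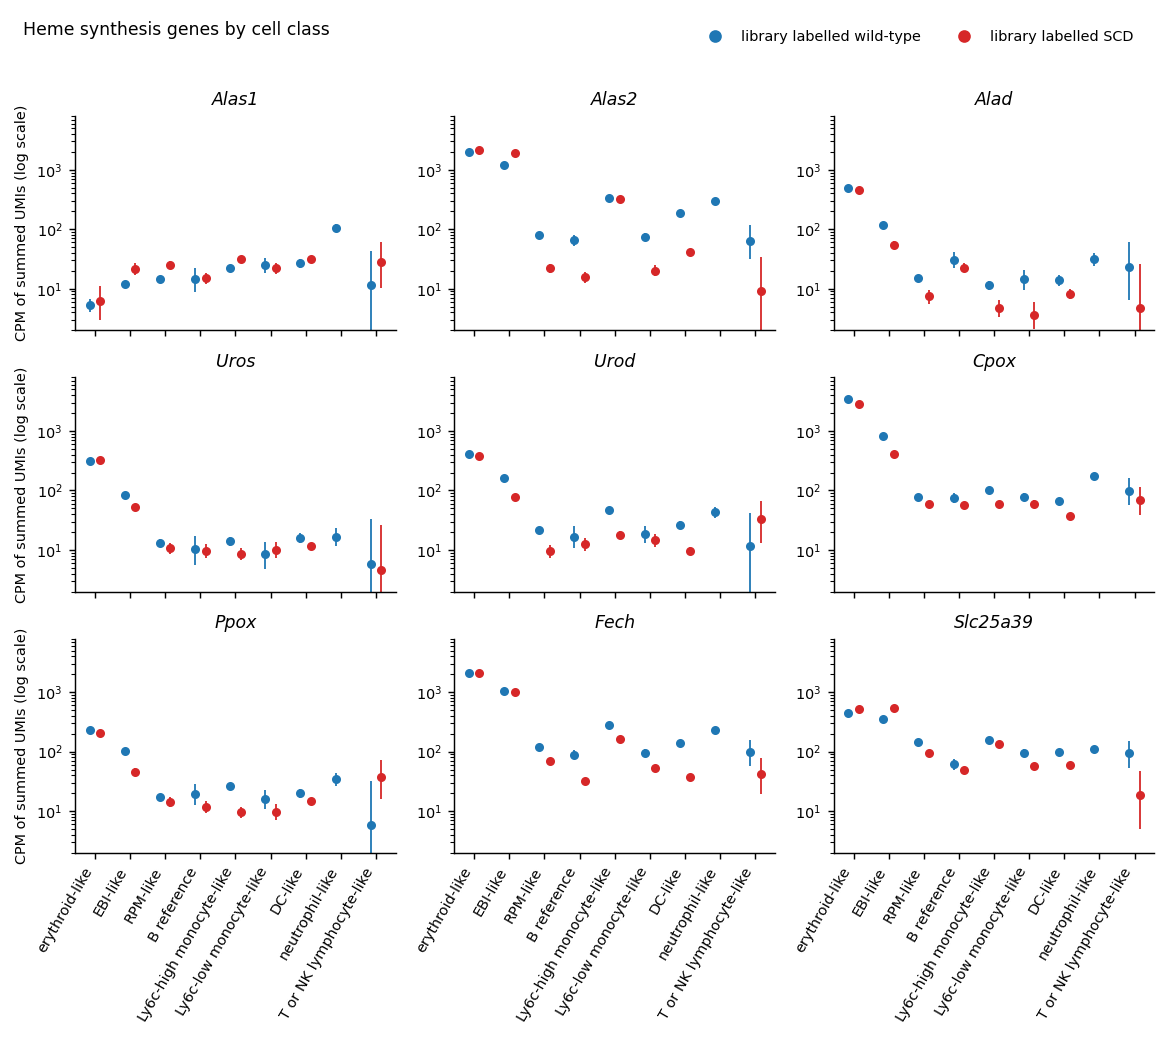
Levels of the 9 members by cell class, as CPM on a log axis with 95% Poisson intervals, in the wild-type-labelled and SCD-labelled libraries. Erythroid-like cells stand highest for 8 members in the wild-type-labelled library and for 7 in the SCD-labelled one. There, Slc25a39 is at 551 CPM in EBI-like and 515 CPM in erythroid-like cells, with overlapping intervals. Alas1 runs the other way, with 5.27 and 6.14 CPM in erythroid-like cells of the wild-type-labelled and SCD-labelled libraries.

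The share of cells with a UMI told the same order. After each cell was thinned to 1000 UMIs, 81.8% and 82.7% of erythroid-like cells held an Alas2 UMI in the wild-type-labelled and SCD-labelled libraries, against 7.09% and 1.69% of the B reference (unthinned, 98.7% and 98.9% against 14.2% and 4.27%, with B reference medians of 2196 and 2899 UMIs). For Uros the thinned shares were 24.3% and 23.5% against 0.958% and 0.873%, and for Alas1 0.473% and 0.368% against 0.766% and 2.10%. The Alas1 shares in erythroid-like cells were at or below the B reference and are read as background. Thinning left out 8 erythroid-like cells and 5 and 16 cells of the B reference.

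Along maturation the first and last enzymes and the carrier gave a higher share of UMIs in later cells. The shares of Alad, Uros and Cpox differed far less. Erythroid-like cells were ordered by the share of late erythroid UMIs among early and late ones, with lists that hold no member, and cut into 5 bins of equal number over both libraries. Mki67, a proliferation gene, was at 2167 CPM in bin 1 and 1976 CPM in bin 5 of the wild-type-labelled library with its highest level of 3751 CPM in bin 3, and Hba-a1 was at 13650.3 and 74194 CPM. The median depth was 10214 UMIs in bin 1 and 2326 UMIs in bin 5, and 71.0% of cells lay within 0.02 of a limit between bins, so the bins are ranges of one order and not cell types. With this fall in depth, a higher CPM in a late bin is a higher share of a smaller total. UMIs of single members per cell were not compared. Bin 1 held cells of cluster 10 only. In bin 5, 302 of 403 cells of the wild-type-labelled library and 61 of 77 of the SCD-labelled library lay in cluster 9, and the others in cluster 10. The level of a late bin is thus that of a mixture of both clusters.

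Alas2 was higher at each step. In the wild-type-labelled library it was at 589.7, 1594, 2729, 3982 and 4972 CPM from bin 1 to bin 5, and in the SCD-labelled library at 629.6, 1398, 2020.4, 3527 and 4436 CPM. The log2 ratio of bin 5 to bin 1 was 3.08 (3.01 to 3.14) and 2.82 (2.64 to 3.0). Slc25a39 followed it, with 213, 341, 524, 818 and 995 CPM and a log2 ratio of 2.22 (2.10 to 2.35) in the wild-type-labelled library, and 211 to 1010.3 CPM and 2.26 (1.93 to 2.60) in the other. Fech was at 1046, 1885, 2679, 3417 and 3939 CPM in the wild-type-labelled library (log2 ratio 1.91, 1.85 to 1.97) and went from 991 to 3532 CPM in the SCD-labelled library (1.83, 1.68 to 1.99).

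Urod and Ppox were higher in the late bins to a smaller degree and differed between the libraries in size. Urod was at 266 CPM in bin 1 and 716 CPM in bin 5 of the wild-type-labelled library, a log2 ratio of 1.43 (1.30 to 1.56), and at 274 and 513 CPM in the SCD-labelled library, a log2 ratio of 0.90 (0.55 to 1.26). Ppox was at 139 and 371 CPM (1.42, 1.24 to 1.60) and at 169.9 and 241 CPM (0.50, 0.0068 to 0.99).

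The steps between were flat or humped over the bins, the later of which mix cells of both clusters. Alad was at 426, 561, 599, 491 and 392 CPM in the wild-type-labelled library and Uros at 259.7, 348, 355, 333 and 292 CPM, both highest in bin 3. Cpox was at 2982, 4085, 4032, 3150.4 and 2613 CPM, highest in bin 2, and at 2582, 3460.4, 3788, 2415 and 2317 CPM in the SCD-labelled library, highest in bin 3. The log2 ratios of bin 5 to bin 1 were -0.12 and -0.41 for Alad, 0.17 and 0.19 for Uros and -0.19 and -0.16 for Cpox. Alas1 gave between 1.83 and 9.35 CPM in every bin and too few UMIs for a ratio.

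**Figure D2:**
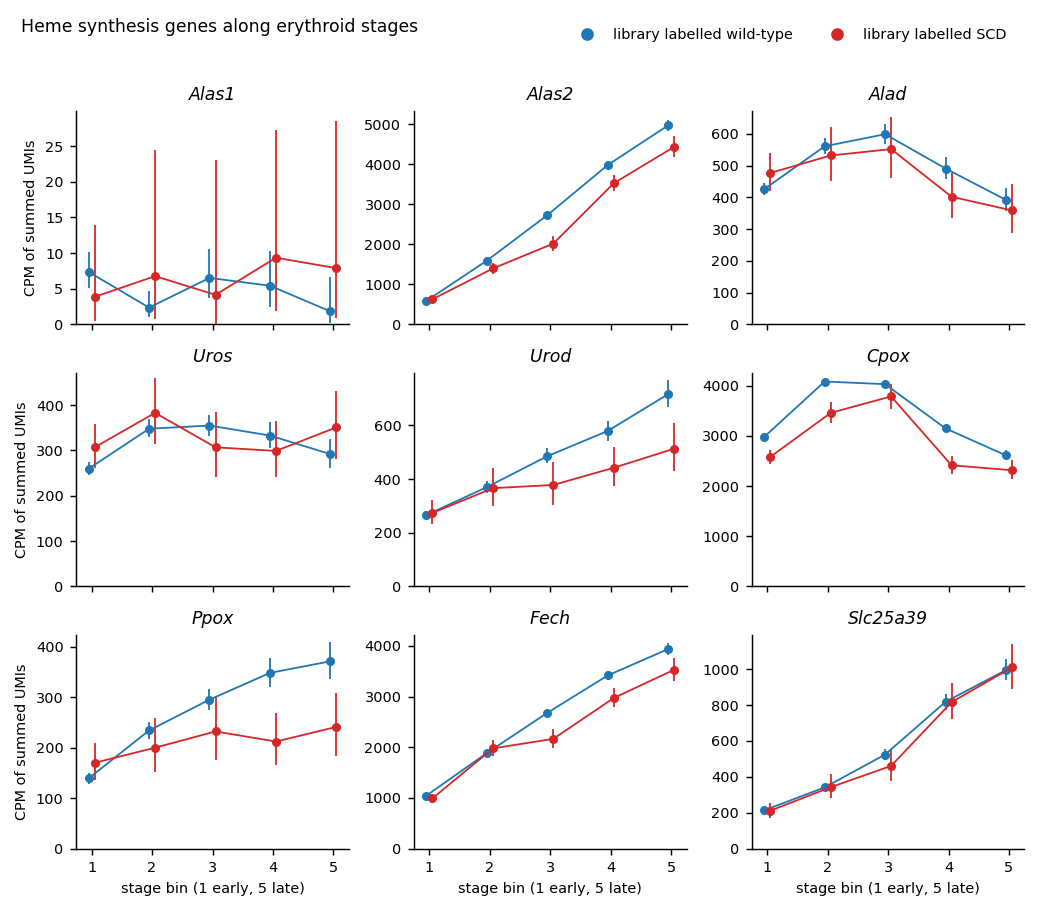
Levels of the members in 5 bins of erythroid-like cells from early to late, as CPM with 95% Poisson intervals, for both libraries. Alas2, Slc25a39 and Fech climb to bin 5 while Cpox, Alad and Uros are highest in bin 2 or 3.

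Of the 8 members with at least 100 UMIs, 5 were at least 2-fold higher in bin 5 than in bin 1 in the wild-type-labelled library (Alas2, Urod, Ppox, Fech and Slc25a39) and 3 in the SCD-labelled library (Alas2, Fech and Slc25a39). Over all genes 10.7% and 18.2% were so. No member was at least 2-fold lower, against 48.1% and 48.2% of all genes, and the median log2 ratio over all genes was -0.95 and -0.90. Cpox, Alad and Uros, with ratios between -0.41 and 0.19, thus lay above the median of all genes.

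The comparison of clusters drew a sharper line than the bins. In the later cluster 9 of the wild-type-labelled library Cpox was at 1469 CPM against 3754 CPM in the cycling cluster 10, a log2 ratio of -1.35 (-1.41 to -1.30), and in the SCD-labelled library at 847 against 3363 CPM (-1.99, -2.17 to -1.82). Alad was at 221 against 541 CPM (-1.29, -1.44 to -1.15) and at 59.7 against 569.8 CPM (-3.26, -3.98 to -2.62). Alas2 was at 5221 against 1493 CPM (1.81) and 4922 against 1416 CPM (1.80), Slc25a39 had log2 ratios of 1.81 and 2.03, and Fech 1.08 and 0.93. Urod had 0.96 and 0.27, Ppox 0.58 and -0.38, and Uros -0.29 and -0.68. Ppox in the SCD-labelled library and Uros in both thus had the opposite sign to the bins. Thus 3 members were at least 2-fold higher and 2 lower in the wild-type-labelled library, and 2 higher and 2 lower in the other. Over all genes 7.20% and 10.0% were at least 2-fold higher, and 43.4% and 60.2% lower. The share of genes lower in cluster 9 was thus large, and the count of lower members is not above it.

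More late cells lacked a Cpox UMI than equal levels in all cells would give. In cluster 10 of the wild-type-labelled library 1 of 1480 cells (0.0676%) had no Cpox UMI, and in cluster 9 144 of 641 (22.5%, 19.3 to 25.9) had none, where 5.17% would lack one if each cell held the same share of its UMIs. In the SCD-labelled library 0 of 154 cells of cluster 10 had none, which allows a share of up to 2.37%, and 47 of 118 cells of cluster 9 (39.8%, 30.9 to 49.3) had none, against 12.8% at equal shares. Of all 641 and 118 cells of cluster 9, 1 and 0 lacked an Alas2 UMI. Equal shares would give 0.0300% and 0.0201%, too few to set against Cpox. The excess was not particular to Cpox. In cluster 9 of the wild-type-labelled library, 68.0% (64.3 to 71.6) of cells lacked Alad against 56.2% at equal shares. For Uros this was 59.3% (55.4 to 63.1) against 51.0%, while Ppox, at 44.6% (40.7 to 48.6) against 43.5%, showed no excess. The cells of cluster 9 without Cpox held less Alad than those with it, at 82.8 against 249 CPM in the wild-type-labelled library and at 0 against 97.8 CPM in the SCD-labelled library, while Alas2 was at 5878 against 5087 CPM and 5060.3 against 4834 CPM. They were also a little shallower, with medians of 1900.5 against 2573 UMIs and 2455 against 2581 UMIs, and held less Mki67 (229 against 599 CPM and 253 against 626 CPM). These cells were split on Cpox itself, so its own level in them is no result.

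The make-up of the set shifted accordingly. Cpox gave 50.3% (49.7 to 50.9) of all UMIs of the 9 genes in bin 1 of the wild-type-labelled library and 18.3% (17.7 to 18.9) in bin 5, while Alas2 gave 9.95% and 34.8%, Fech 17.6% and 27.6%, and Slc25a39 3.60% and 6.97%. In the SCD-labelled library, bin 5 held 18.1% Cpox, 34.7% Alas2, 27.7% Fech and 7.91% Slc25a39. The sum of the 9 genes was 5929 CPM in bin 1 and 14292 CPM in bin 5 of the wild-type-labelled library. This is a rise in share, as the 9 genes gave 28996 UMIs in the 438 cells of bin 1 and 15634 UMIs in the 403 cells of bin 5. In cluster 9 Cpox gave 11.1% and 7.45% in the wild-type-labelled and SCD-labelled libraries.

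**Figure D3:**
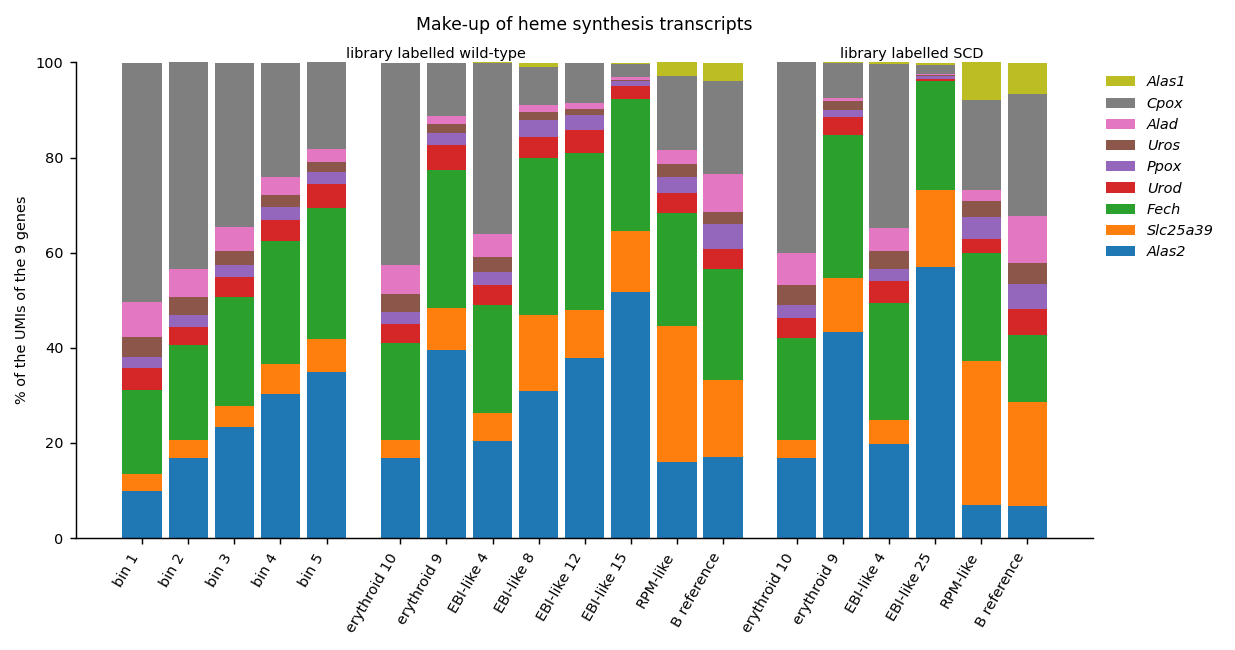
Share of each member in the UMIs of the 9 genes, in percent, by group of cells and library. Cpox shrinks from 50.3% in bin 1 to 18.3% in bin 5 of the wild-type-labelled library and to under 3% in EBI-like clusters 15 and 25, where Alas2 gives over 51%.

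In macrophages that held erythroid transcripts, all members but Alas1 were higher than in macrophages that did not. EBI-like cells were clusters in which the median red pulp macrophage marker stood at least 4-fold and the median erythroid marker at least 2-fold above the B reference. RPM-like cells met the macrophage limit alone and also needed a minimum number of macrophage markers at least 2-fold above the other cells. Cluster 4 lay just inside the macrophage limit, at 4.21-fold, and cluster 5, at 3.94-fold, just outside it and without a name. Cluster 19 met both limits (4.66-fold and 4.96-fold) but stayed unnamed, as B lymphocyte genes led it. Cluster 11 met the macrophage limit alone (4.84-fold and 1.03-fold) but stayed unnamed, as too few of its macrophage markers stood above the other cells. EBI-like cells numbered 5586 (28.8% of kept cells) and 809 (6.59%), and RPM-like cells 4750 and 1690, in the wild-type-labelled and SCD-labelled libraries. The macrophage list summed to 16640.0 and 14839.8 CPM in EBI-like cells, and the erythroid list to 23913 and 24929.8 CPM, where RPM-like cells had 1494 and 316 CPM of the latter. The erythroid list chose these clusters, so higher levels of other erythroid genes in them go with the choice.

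Alas2 was at 1199 CPM in EBI-like and 81.0 CPM in RPM-like cells of the wild-type-labelled library (log2 ratio 3.89, 3.81 to 3.97), and at 1955 and 22.0 CPM in the SCD-labelled library (6.48, 6.25 to 6.71). Fech was at 1058 against 120.2 CPM (3.14) and 1017 against 70.9 CPM (3.84), and Cpox at 835 against 79.1 CPM (3.40) and 413 against 58.7 CPM (2.81). Slc25a39 was at 358 against 146 CPM (1.30) and 551 against 94.2 CPM (2.55). Alad, Uros, Urod and Ppox had log2 ratios of 2.53 to 2.94 in the wild-type-labelled library and 1.66 to 3.03 in the SCD-labelled library, whereas Alas1 was at 12.2 against 14.6 CPM (-0.26) and 21.7 against 25 CPM (-0.21, -0.60 to 0.18). So 8 of 9 members were at least 2-fold higher in each library, against 11.0% and 4.50% of all genes.

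That count hid a difference between clusters. Cluster 4 held 1440 and 84 cells and was marked as doublets, droplets with more than 1 cell, in 39.9% and 72.6% of cells. Without it 8 members remained at least 2-fold higher in the wild-type-labelled library, but 4 in the SCD-labelled library. There, Cpox then had a log2 ratio of 0.64, Ppox 0.80 and Uros 0.90, while Alas2 had 6.61, Fech 3.74, Slc25a39 2.71 and Urod 2.08, and Alad had too few UMIs. No share of all genes without cluster 4 stands beside these counts.

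To set each member on the same scale, its level above RPM-like cells was expressed as a percent of the erythroid-like level above RPM-like cells. An equal percent for every member means that the members stand in the proportions of erythroid-like cells. In cluster 4 the percents lay close together, from 47.6% for Uros to 54.3% for Ppox in the wild-type-labelled library, and from 41.4% for Slc25a39 to 65.3% for Ppox in the SCD-labelled library. In the other EBI-like clusters they lay far apart.

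Cluster 15 (1081 cells of the wild-type-labelled library, 1.02% marked as doublets) was at 125% (122 to 128) for Alas2, 162% (152 to 172) for Slc25a39 and 62.2% (60.3 to 64.1) for Fech. The same cells were at 28.3% for Urod, 12.6% for Ppox, 2.47% for Alad, 1.51% (1.18 to 1.85) for Cpox and 0.444% (-0.878 to 1.77) for Uros. In levels, Alas2 was at 2487 CPM and Slc25a39 at 622 CPM in this cluster, while Cpox was at 130.1 CPM, set against 79.1 CPM in RPM-like and 3441 CPM in erythroid-like cells. Set against erythroid-like cells as a whole, cluster 15 therefore held erythroid levels of the first enzyme and of the carrier. It held almost none of the excess of Alad, Uros and Cpox. In the later erythroid cluster 9 of the same library Alas2 was higher than in cluster 15, at 5221 CPM, and Slc25a39 at 1148 CPM. Cpox and Alad were at 1469 and 221 CPM in cluster 9.

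Cluster 25, which was nearly all from the SCD-labelled library (642 of its cells, 2.02% marked as doublets), had the same 3 members highest. It was at 119% (107 to 131) for Slc25a39, 97.6% (93.4 to 102) for Alas2 and 37.3% (35.2 to 39.4) for Fech, and at 2.95% or less for Urod, Ppox, Uros, Cpox and Alad, with an interval that spans 0 for the last 4. A cluster held mostly by 1 library may reflect that library, and Hbb-bs and Hbb-bt were among its leading genes. Cluster 12 (1573 cells, wild-type-labelled library) lay between, at 121% for Slc25a39, 94.5% for Alas2, 78.1% for Fech, 63.7% for Ppox, 57.3% for Urod, 19.7% for Uros, 10.1% for Cpox and 8.66% for Alad. Cluster 8 (1480 cells) held the least, from 1.04% for Alad and 1.18% for Cpox to 19.6% for Alas2 and 30.6% for Slc25a39.

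**Figure D4:**
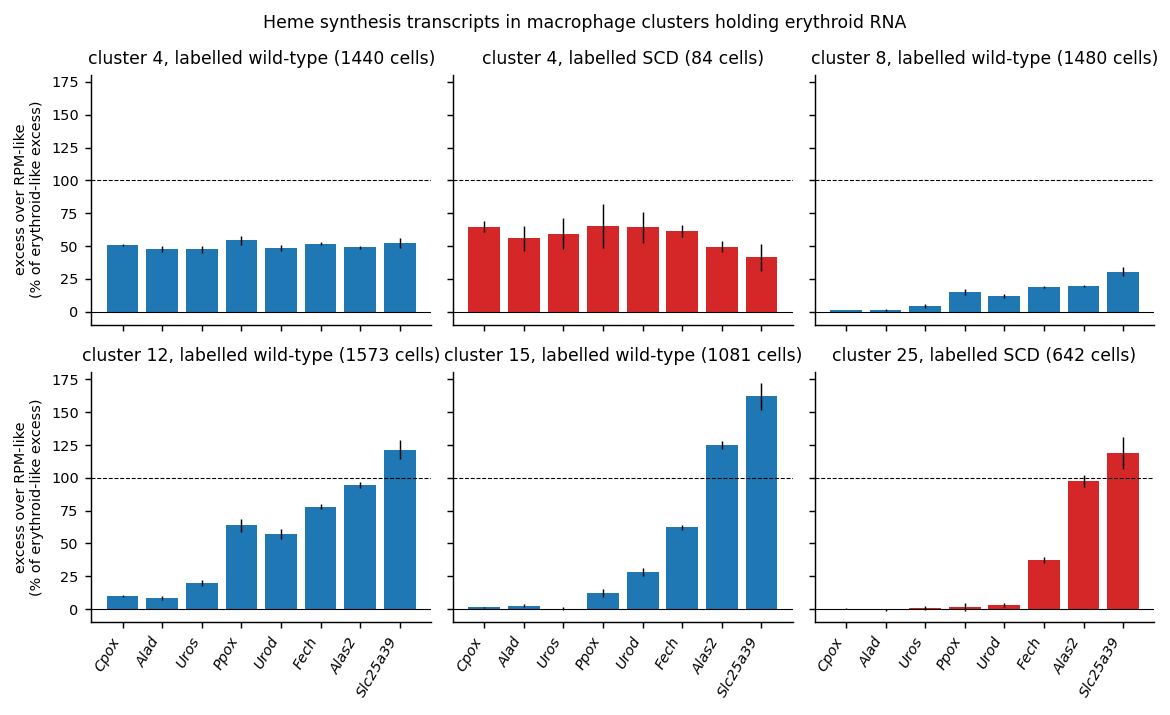
Level of each member in EBI-like clusters above RPM-like cells, as a percent of the pooled erythroid-like level above RPM-like cells, with 95% intervals. Cluster 4 of the wild-type-labelled library lies between 47.6% and 54.3% for 8 members, while clusters 12, 15 and 25 run from at most 10.1% for Alad and Cpox to over 100% for Slc25a39.

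Across all EBI-like cells the median percent was 37.5% over 8 members in the wild-type-labelled library, from 21.1% for Alad to 72.2% for Slc25a39, and 17.5% in the SCD-labelled library, from 10.2% for Alad to 109% for Slc25a39. Over 15 erythroid marker genes it was 31.8% and 15.6%. The markers ran from 21.3% for Klf1 to 44.2% for Slc4a1 in the wild-type-labelled library and from 10.7% for Gata1 to 51.7% for Hba-a1 in the SCD-labelled one. In cluster 15 the median was 20.4% over the members and 2.70% over the markers, which ran from -0.0478% for Epor to 87.7% for Hba-a1. The percents of Alas1 were not computed, as it was no higher in erythroid-like cells. The order of the members in clusters 12, 15 and 25 was close to that of the later over the earlier erythroid cluster, with Alas2 and Slc25a39 high and Alad and Cpox low. With marked doublets at 1.02% to 2.02% of the cells named above in those clusters, the part of captured pairs in these levels was not tested.

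RPM-like cells differed little from B lymphocytes in most members. In the wild-type-labelled library Slc25a39 was at 146 CPM in RPM-like cells against 61.8 CPM in the B reference (log2 ratio 1.24, 0.92 to 1.57), and in the SCD-labelled library at 94.2 and 49.4 CPM (0.93, 0.73 to 1.13). Fech was at 120.2 and 89.5 CPM (0.43) and at 70.9 and 31.9 CPM (1.15, 0.91 to 1.40). Alad was lower, at 15.2 and 30.6 CPM (-1.01, -1.48 to -0.50) and at 7.41 and 22.5 CPM (-1.60, -2.08 to -1.14). In each library 1 member was at least 2-fold higher, where 19.9% and 18.8% of all genes were, and 1 was at least 2-fold lower, where 16.5% and 13.3% were. Cpox was at 79.1 and 74.9 CPM and at 58.7 and 58.1 CPM, so that its level in RPM-like cells could not be told from the B reference.

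**Figure D5:**
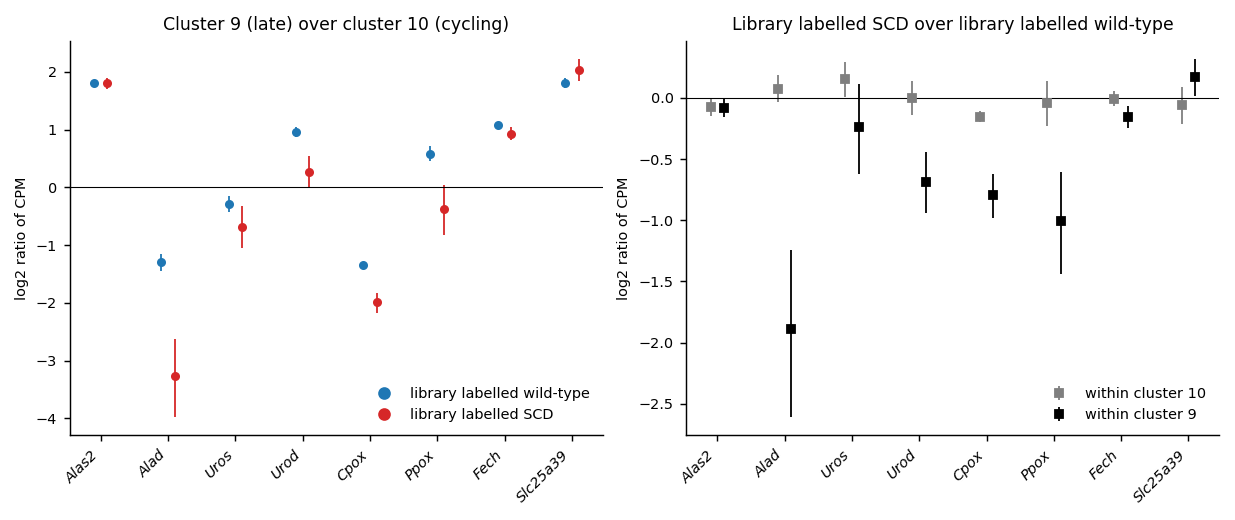
Members in erythroid-like cells, as log2 ratios with 95% intervals: the later over the cycling cluster in each library, and the SCD-labelled library over the wild-type-labelled library within each cluster. Alas2, Slc25a39 and Fech lie above 0 and Alad and Cpox below 0 in the first, and members in cluster 10 lie within -0.16 to 0.15 in the second.

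Between the libraries, members were alike in erythroid-like cells as a whole. The log2 ratio of the SCD-labelled library to the wild-type-labelled library was 0.094 (0.042 to 0.14) for Alas2, 0.034 (-0.017 to 0.085) for Fech, -0.27 (-0.32 to -0.23) for Cpox, -0.21 (-0.38 to -0.045) for Ppox and 0.23 (0.12 to 0.33) for Slc25a39. Alad, Uros and Urod lay between -0.11 and 0.069. Of 8 members none was at least 2-fold higher or lower, where 0.819% and 5.36% of all genes were, and the median was -0.031 over the members and -0.16 over all genes. These ratios compare 2 mice, so their intervals say nothing of the spread between mice.

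Within maturation the bins and the clusters differed, and bins 4 and 5 held cells of both clusters. In bin 4, 235 of 403 cells of the wild-type-labelled library and 49 of 74 of the SCD-labelled library lay in cluster 9. In bin 5 these were 302 of 403 and 61 of 77. Cells without an Alad UMI made up 57.6% and 67.5% of bin 5, against 39.3% and 36.0% at equal shares. The part of this mixture in the difference between bins and clusters was not tested. In bins 4 and 5, 0 of 8 members were at least 2-fold higher or lower in the SCD-labelled library, with median log2 ratios of -0.25 and -0.16 over the members and -0.31 and -0.34 over all genes, and Alad was at 402 against 491 CPM and 359 against 392 CPM. The share of all genes so changed in these bins was not computed, so the count of 0 has no background. Alas2 was lower in the SCD-labelled library in bins 2 to 5, by log2 ratios of -0.19, -0.43, -0.18 and -0.16, although its pooled ratio was above 0. Bins 4 and 5 held 74 and 77 of the 272 erythroid-like cells there, and 403 and 403 of the 2121 in the other library. In cluster 10 the members' ratios ran from -0.16 for Cpox to 0.15 for Uros, and none was at least 2-fold lower, against 4.34% of all genes. In cluster 9 Alad was at 59.7 CPM in the SCD-labelled library and 221 CPM in the wild-type-labelled library (log2 ratio -1.89, -2.61 to -1.24), Ppox at 164 and 331 CPM (-1.01, -1.44 to -0.61), Cpox at 847 and 1469 CPM (-0.79, -0.98 to -0.62) and Urod at 436 and 701 CPM (-0.69, -0.94 to -0.44). Alas2 (-0.085), Fech (-0.16) and Slc25a39 (0.17) differed by far less. With 2 of 8 members at least 2-fold lower, the set was near the 28.1% of all genes that were so in cluster 9, whose median log2 ratio over all genes was -0.60.

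Summed over all kept cells, the log2 ratio of the SCD-labelled library to the other ran from -1.41 for Alas2 to -2.38 for Cpox over 7 members, with Slc25a39 at -0.97 and Alas1 at 0.59, and its median over all genes was 0.18. The share of erythroid-like cells was 2.21% against 10.9% and that of EBI-like cells 6.59% against 28.8%, and a sum over cells cannot tell fewer such cells from less RNA per cell. In EBI-like cells the SCD-labelled library was at 1955 CPM for Alas2 and the wild-type-labelled library at 1199 CPM, but these levels came mostly from different clusters. In the former, cluster 25 gave 642 of 809 cells and cluster 4 gave 84. In the latter, nearly all came from clusters 4, 8, 12 and 15.

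The other genes of heme synthesis and iron supply, a list of 21, were counted in the same comparisons. In erythroid-like cells 15 were at least 2-fold higher than in the B reference in each library, where 19.3% and 14.1% of all genes were. Pgrmc1 and the heme exporter Flvcr1 were at least 2-fold lower in the SCD-labelled library, where the median log2 ratio over all genes was -0.72. The share of all genes that were so was not computed, so nothing is read from these 2. Slc25a37, the mitochondrial iron importer mitoferrin 1, was at 4149 against 198 CPM (log2 ratio 4.39) and 4078 against 113 CPM (5.18), and Tfrc, the transferrin receptor, at 3239 against 119 CPM (4.77) and 2665 against 49.9 CPM (5.74). From bin 1 to bin 5, 6 of 20 genes were at least 2-fold higher and 6 lower in the wild-type-labelled library, and 3 and 2 of 9 in the SCD-labelled library, where 10.7% and 18.2% of all genes were higher and 48.1% and 48.2% lower.

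Among them, Eif2ak1, the heme-regulated inhibitor of translation, had log2 ratios of bin 5 to bin 1 of 2.25 and 2.55, and Slc25a37 of 1.96 and 1.88. Tmem14c, which helps to move the porphyrin precursor into mitochondria, was lower at -2.10 and -2.80, with 1542 CPM in bin 1 and 359 CPM in bin 5 of the wild-type-labelled library. Steap3, the endosomal iron reductase, was at 106 and 7.31 CPM (-3.85) there. In EBI-like over RPM-like cells 9 of 21 and 7 of 19 were at least 2-fold higher, beside 11.0% and 4.50% of all genes, while Hmox1, the heme-degrading enzyme, was at 8462 against 11685 CPM and 5979.8 against 7323 CPM. In RPM-like cells over the B reference 8 of 21 were higher and 1 lower in the wild-type-labelled library, and 5 and 1 of 18 in the other, beside 19.9% and 18.8% of all genes higher and 16.5% and 13.3% lower. Between the libraries, 1 of 21, Hmox1, differed by 2-fold or more in erythroid-like cells, at 996 CPM in the SCD-labelled library and 2312 CPM in the wild-type-labelled library, where the macrophage list summed to 2352 and 4021 CPM, a part that was not tested.

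Genes whose levels ran most like those of Alas2 were named by correlation over 45 sums of cells (1 cluster in 1 library, with at least 50 cells) among 11050 genes. Among the 5 highest were Hba-a1 (r = 0.987), Hba-a2 (0.976), Fech (0.971) and Tent5c (0.96). For Slc25a39 the 5 highest included Alas2 (0.943), Nadk2 (0.934), Fech (0.932) and Snx15 (0.932). For Alas1 they were Pxn (0.817), Twf2 (0.789), Slc27a4 (0.778), Cpne3 (0.771) and Agps (0.771). Within the set the highest were Alas2 with Fech (0.971), Cpox with Uros (0.957), Alas2 with Slc25a39 (0.943) and Alad with Cpox (0.942), and Alas1 ran against the rest, at -0.597 with Uros. The sums share 2 libraries, their free RNA and their depth, so these values describe the sums and no more.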

How the data were processed

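Per the labels and methods, the authors processed F4/80-enriched spleen cells by droplet scRNA-seq and deposited UMI counts (unnormalized, 1 column per barcode) aligned to GRCm38.p6 as their processing notes give it. The methods name Cell Ranger 4.0.0, and the matrix headers carry another software version. No sample was left out. The cell filter asked for 500 to 5000 genes, less than 15% of UMIs from mitochondrial genes and less than 30% from ribosomal protein genes. Size factors from scran 1.30.0 (R 4.3.3), 2000 variable genes, 30 principal components, 15 neighbours and Leiden clustering at resolution 1 (scanpy 1.11.5, python-igraph 0.11.9, Python 3.11.15) gave the clusters. Scrublet marked 0 doublets in the wild-type-labelled library, so the highest-scoring 1942 cells (10.0%) were taken, and 1748 cells (14.2%) were marked in the other; doublets were left in. EBI-like, RPM-like and other names came from marker lists, with limits set after clusterings had been seen.

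Levels are CPM of summed UMIs with exact Poisson intervals, and ratios have exact conditional binomial intervals (95%), for counting error only. Ratios were called at 2-fold among genes with at least 100 UMIs, and a count of 0 was set to 3 counts. Cells with under 5 staging UMIs were not to be staged. On simulated counts for erythroid-like cells over the B reference in the wild-type-labelled library (8555 genes, 200 changed) the direction was recovered for 100.0% of genes changed 2-fold and 4-fold, and 95.9% of intervals held the true value. Named genes are the 9 members, hemoglobin genes, 21 pathway genes, markers, and the 5 genes most alike to Alas2, Alas1 and Slc25a39, and some of these are not reported here. Members and lists were chosen with earlier results of these data known. Alternatives were another clustering resolution, doublets left out, a looser cell filter (at least 200 genes, up to 20% mitochondrial UMIs), another normalization, all genes in clustering, separate clustering, totals without hemoglobin genes, means of single-cell CPM, another B reference, stage from clusters, staging after thinning to 2000 UMIs and cells with macrophage UMIs left out, and the alternatives without cluster 4, without marked doublets in the same clusters and within erythroid-like clusters were chosen after seeing the data.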

Additional observations from a re-analysis of the deposited data

How the results depend on the processing

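No paired analysis was possible because each condition had 1 library. The 8 members at least 2-fold higher in erythroid-like cells than in the B reference remained 8 in each library under every alternative run. The count of members in EBI-like over RPM-like cells of the SCD-labelled library was less firm, at 5 without doublets and under the looser cell filter and at 4 with all genes in the clustering, with the libraries clustered separately and without cluster 4. In RPM-like cells over the B reference of the wild-type-labelled library, the 1 lower member, Alad, was 0 without doublets, under the looser filter, with total-count normalization, all genes in clustering, separate clustering, means of single-cell CPM and all B lymphocyte-like cells as reference, and the latter also took the 1 higher member to 0 in both libraries, while means of single-cell CPM gave 2 higher in the SCD-labelled library. From early to late cells, staging by clusters gave 3 higher and 2 lower in the wild-type-labelled library and 2 lower in the SCD-labelled library, where means of single-cell CPM gave 1 lower. Separate clustering gave 1 member, Alas1 (log2 ratio 1.20), at least 2-fold higher in the SCD-labelled library than in the other in erythroid-like cells. The median excess in EBI-like cells of the wild-type-labelled library was 47.0% at resolution 0.5, 30.7% without doublets, 35.9% with all genes in clustering, 35.7% with separate clustering, 34.1% with means of single-cell CPM, 30.6% without erythroid-like cells with macrophage UMIs, 28.5% without cluster 4 and 33.8% with marked doublets left out of the same clusters. In the SCD-labelled library it was 7.0% without doublets, 9.39% with the looser filter, 7.07% with all genes in clustering, 3.05% with separate clustering, which turned Alad to -0.525%, 13.1% with means of single-cell CPM, 7.03% without cluster 4 and 9.75% with marked doublets left out of the same clusters. The cause of these shifts was not tested. Depth limits Alas1, with 71 and 10 UMIs in erythroid-like cells, and the late cells of the SCD-labelled library, with 77 cells in bin 5.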

Other observations

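Alas2 was not confined to erythroid-like and EBI-like cells. Cells called Ly6c-high monocyte-like held it at 339 CPM (328 to 351) in the wild-type-labelled library, against 65.5 CPM in the B reference, and Fech was at 284 CPM there. A cluster of that class, cluster 3, was marked as doublets in 40.3% of cells, and its leading genes included Hbb-bs and Hbb-bt beside the monocyte genes Ccr2 and F13a1. In the same class Alad was at 11.4 CPM, below the 30.6 CPM of the B reference, and Uros at 13.9 CPM against 10.2 CPM.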
